A study of Mus musculus with 55 samples.

Results

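The genes described here are the nuclear-encoded genes of mitochondrial oxidative phosphorylation, taken by symbol: every gene of the deposited pre-mRNA tables whose name starts with Nduf followed by a, b, c, s or v, with Sdh followed by a to d, with Uqcr, with Cox followed by a digit from 4 to 8, or with Atp5. This gave 84 of the 9911 genes listed for CCNA-GFP cells and 84 of the 10237 listed for CTCF-AID cells, 85 genes in either table and 83 in both. Cox7b2 was listed only for CCNA-GFP and Ndufaf7 only for CTCF-AID. Grouped mostly by symbol, 37 of the 85 were placed in complex I, 4 in complex II, 8 in complex III, 12 in complex IV and 13 in complex V, and 11 among assembly or supercomplex factors. Ndufa4 was placed in complex I by its symbol alone. The symbol rule itself uses no measured value, though it was set with earlier results of these data known. The tables hold only genes that passed the authors' TPM filter in asynchronous cells or after release. Being listed can therefore favour genes that are high after release. In RefSeq the same rule finds 100 protein-coding symbols, and 15 of them were not analysed here.

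Both lines are mouse embryonic stem (ES) cells of the E14Tg2a background (strain 129/Ola) grown in serum and LIF. CCNA-GFP cells carry a cyclin A-GFP reporter of the cell cycle and gave 19 libraries. In CTCF-AID cells, used as the line #EN52.9.1, the architectural protein CTCF is fused to an auxin-inducible degron, so that adding the auxin IAA has the protein degraded, and this line gave 36 libraries without and with IAA. In both lines, cells were held with the CDK1 inhibitor RO-3306 (10 µM, 4 h), moved into nocodazole (50 ng/ml, 4 h), which blocks the spindle, shaken off as mitotic cells and released. RNA was taken from asynchronous cells, from mitotic cells and at 20, 40, 50, 60, 90 and 120 min after release, and in CCNA-GFP also at 30 min. IAA was added to the +IAA arm at 0.5 mM for the last 2 h of nocodazole and kept through the release; the −IAA arm went through the same block. Asynchronous cells of the +IAA arm, which were not blocked, had 0.5 mM IAA for 4 h. Asynchronous and mitotic cells have 3 libraries in each arm and the time points 2, except 50 min in CCNA-GFP, which has 1 library and therefore no error and no test.

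Oxidative phosphorylation is the last stage of respiration. Complexes I and II pass electrons from NADH and succinate to ubiquinone, complex III hands them to cytochrome c, complex IV passes them to oxygen, and complex V (ATP synthase) uses the proton gradient built on the way to make ATP. Most subunits are encoded in the nucleus and the remainder in mitochondrial DNA, so both genomes supply each of complexes I, III, IV and V, whereas complex II is wholly nuclear. Mouse ES cells in serum and LIF draw much of their energy from glycolysis and also respire.

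The values are TPM, a measure of a gene's transcripts corrected for length and for library size, of the unspliced isoform of each gene, which still holds its introns and follows ongoing transcription. Each library's values are in addition multiplied by a factor of its own that no source names. Read counts were not analysed here, so sequencing depth and counting error are unknown, and only the spread of replicates gives the error. Listed TPM summed to 13746.9–42575.8 per library in CCNA-GFP and 17701.5–43370.2 in CTCF-AID, with the sums moving with the stage. Because of this, the main counts and the 60 min values of most members named are also given after scaling all libraries to the same total. Of 8 fixed ES cell markers 7 were listed, summing to 43.5–92.8 TPM in asynchronous CCNA-GFP and 51.8–112 TPM in asynchronous −IAA libraries. Of 5 fibroblast feeder markers 0 were listed for CCNA-GFP, and 2 for CTCF-AID, summing to 0.348–1.17 TPM in the asynchronous −IAA libraries. None of 3 primitive endoderm markers was listed, and 3 of 4 genes of early differentiation summed to 0.406–2.17 TPM in CCNA-GFP and 0.297–3.91 TPM in −IAA asynchronous cells. These markers also moved with the stage. The feeder markers went from 0.146–0.435 TPM in mitosis to 1.87–2.56 TPM at 60 min in −IAA libraries and from 0.196–0.473 to 2.41–2.95 TPM in +IAA, with both genes called higher in each arm, also under the same total. The early differentiation genes reached 2.02–3.36 TPM at 60 min in CCNA-GFP, 1.82–6.26 TPM in −IAA and 1.82–6.13 TPM in +IAA, with 2 of 3 called higher in each arm. In asynchronous cells the lower feeder gene averaged 0.209 TPM in −IAA and the lowest early differentiation gene 0.154 TPM in CCNA-GFP. Both means are below the authors' filter of 0.5 TPM. Such genes were listed through their level after release, and their rise is partly set by that filter. ES cell markers at 60 min summed to 59.5–91.1 TPM in CCNA-GFP and 77.0–85.9 TPM in −IAA. Under the same total 2 of these 7 were called higher and 1 lower in CCNA-GFP, 2 and 4 in −IAA and 2 and 3 in +IAA. The part of other cells in the results was not tested.

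The first question was when these genes resume transcription after mitosis. In CCNA-GFP cells 1 of them was called above mitosis by 30 min and most by 40 min, and their summed pre-mRNA was highest at 50 to 90 min, above the asynchronous level. The summed pre-mRNA of the members was 151 ± 24.6 TPM in mitosis and 222 ± 44.9 TPM in asynchronous cells (SD, n = 3 each). After release the sum reached 243 ± 53.9 TPM by 40 min (SD, n = 2) and 432 TPM in the 50 min library. The later stages gave 405 ± 111 TPM for 60 min, 420 ± 30.6 TPM for 90 min and 337 ± 25.7 TPM for 120 min (SD, n = 2 each). The members' share of all listed pre-mRNA moved much less, from 0.988% in mitosis to 1.198% at 50 min, 1.09% at 60 min and 0.953% in asynchronous cells. In bulk RNA, a change in how many cells are at a given phase and a change in RNA per cell cannot be told apart.

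Each stage was then tested against mitosis gene by gene with limma on log2(TPM + 1), blocking on the replicate number and adjusting p by Benjamini-Hochberg across every listed gene, and a gene was called at an adjusted p under 0.05. Fold changes are on this log2(TPM + 1) scale, which understates the change of genes near 1 TPM. At 20 min 0 of 84 members were called, as were 0.0% of all genes (at an unadjusted p under 0.05, 3 members and 253 of all genes). At 30 min 1 member was higher, against 0.303% of all genes. At 40 min 61 members were higher (49.3% of all genes) and at 60 min 79 (88.3%). The later stages had 83 higher at 90 min (89.1%) and 82 at 120 min (90.2%). At these times 0 members were lower, against 0.0404%, 0.515%, 0.948% and 0.656% of all genes. Without replicate 1, 36 members were higher at 40 min, and without the replicate block 28. For counts refitted with a replicate left out or the block removed, here and below, no share of all genes is given. A fall in such a count is therefore not a result about the members. In the main fit, the share of members called at 60 min and later was close to that of all genes. Their median log2 fold change ran ahead of the median of all genes at 40 min (0.46 against 0.26), at 50 min (0.85 against 0.53) and at 60 min (1.00 against 0.79), and came closer at 120 min (0.77 against 0.68).

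In CTCF-AID cells without IAA the mitotic sum of the members was 205 ± 31.5 TPM (SD, n = 3). By 40 min it reached 332 ± 67.5 TPM and by 50 min 456 ± 20.1 TPM (SD, n = 2 each), and it was 208 ± 36.4 TPM in asynchronous cells (SD, n = 3). At 20 min 0 members and 0.0% of genes were called (unadjusted p under 0.05 in limma, 2 members and 397 of all genes). Called higher than in mitosis were 64 members at 40 min (63.3% of all genes), 78 at 50 min (79.1%) and 81 at 60 min (84.8%). Fewer were higher later, 67 at 90 min (74.8%) and 62 at 120 min (69.6%). At 40, 50 and 60 min 0 were lower (3.21%, 4.56% and 2.7% of all genes). Called lower were Atp5e, the epsilon subunit of ATP synthase, at 90 min (log2 fold change −0.33; 3.37% of all genes were lower) and Atp5e (−0.31) and Cox5a (−0.29) at 120 min (3.15%). With IAA the counts were 64 at 40 min (58.7%), 76 at 50 min (78.2%) and 78 at 60 min (82.2%), then 71 at 90 min (73.8%) and 63 at 120 min (68.2%), with 0 at 20 min (0.0%; unadjusted, 2 members and 149 of all genes). Lower were 2 members at 40 min (3.87%), 0 at 50 and 60 min (5.37% and 4.04%), and Atp5e at 90 min (−0.47; 4.41%) and 120 min (−0.51; 4.42%). Without replicate 3, the −IAA count at 90 min was 44, and without replicate 2 the counts at 120 min were 41 in −IAA and 40 in +IAA. The lines came in separate tables and what sets the scale of each library is not known, so no test was made between the lines.

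**Figure D1:**
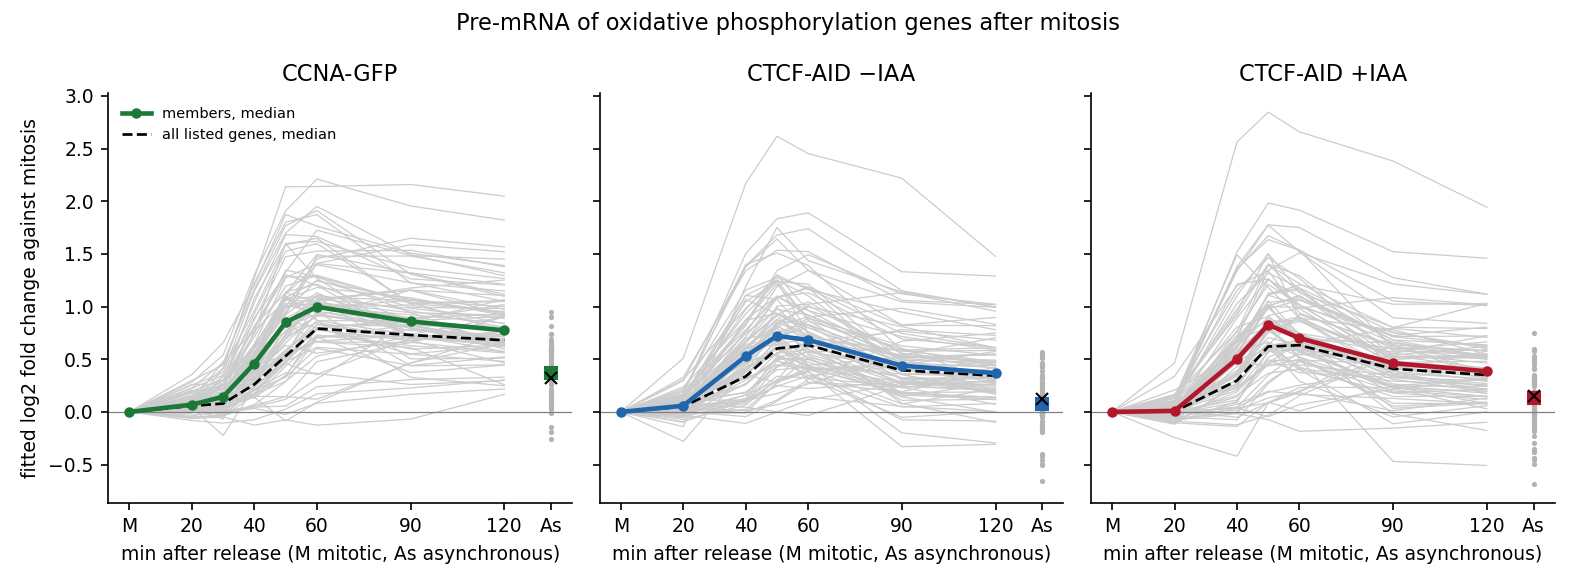
Fitted log2 fold change of pre-mRNA against mitotic cells (y axis) by minutes after release (x axis; M mitotic, As asynchronous) in CCNA-GFP, CTCF-AID −IAA and CTCF-AID +IAA cells. Grey lines and points are single members, the coloured line and square their median and the dashed line and cross the median of all listed genes; the members' median lies above that of all genes at 40 to 60 min, by 0.46 against 0.26 at 40 min in CCNA-GFP.

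How many members count as higher depends on the scaling of the libraries. With the same total in every library, the shift shared by all genes goes (the median of all genes at 60 min in CCNA-GFP became 0.02), and the members split: 35 were higher and 21 lower than in mitosis at 60 min in CCNA-GFP (36.4% and 33.3% of all genes), 28 and 26 in −IAA (39.4% and 31.1%), and 34 and 22 in +IAA cells (40.7% and 33.2%). At 40 min the split was 31 higher and 15 lower in CCNA-GFP (23.7% and 31.3%), 34 and 23 in −IAA (33.3% and 36.7%) and 37 and 25 in +IAA (33.2% and 38.6%). The members' median at 60 min was then 0.13 in CCNA-GFP, 0.01 in −IAA and 0.04 in +IAA.

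By complex, the rise at 60 min in CCNA-GFP (88.3% of all genes) took in 34 of 37 subunits of complex I, the enzyme that oxidises NADH (median log2 fold change 0.96), and all 4 of complex II, succinate dehydrogenase (0.93). It took in all 8 of complex III (1.08), 11 of 12 of complex IV, cytochrome c oxidase (1.09), and all 13 of ATP synthase (1.06). Among the assembly and supercomplex factors, which help to build or join the complexes, 9 of 10 rose, with a median of 0.68. At 40 min the counts were 25 of 37 for complex I, 4 of 4, 7 of 8, 10 of 12 and 11 of 13 for complexes II to V, and 4 of 10 for the assembly factors (median 0.22), against 49.3% of all genes. In −IAA cells at 60 min (84.8% of all genes) all subunits of complexes II to V, 34 of 37 of complex I and 11 of 11 assembly factors rose, with the lowest median again in the assembly factors (0.42, against 0.60 to 0.86 in the complexes). In +IAA cells (82.2% of all genes) complex I had 32 of 37 and complex V 12 of 13 called higher, and the median of the assembly factors was 0.48. Under the same total in CCNA-GFP at 60 min, 18 subunits of complex I were higher than in mitosis and 9 lower, 2 and 0 of complex II, 3 and 1 of complex III, 5 and 3 of complex IV, 5 and 5 of complex V, and 2 and 3 of the assembly factors. Complex I then had 11 higher and 10 lower in −IAA and 16 and 10 in +IAA cells. The median of the assembly factors was then not the lowest in CCNA-GFP (−0.086, complex V −0.090) or −IAA (−0.046, complex III −0.092). In +IAA it was the lowest (−0.13). Differences between complexes were not tested, and the members of a complex are not replicates.

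**Figure D2:**
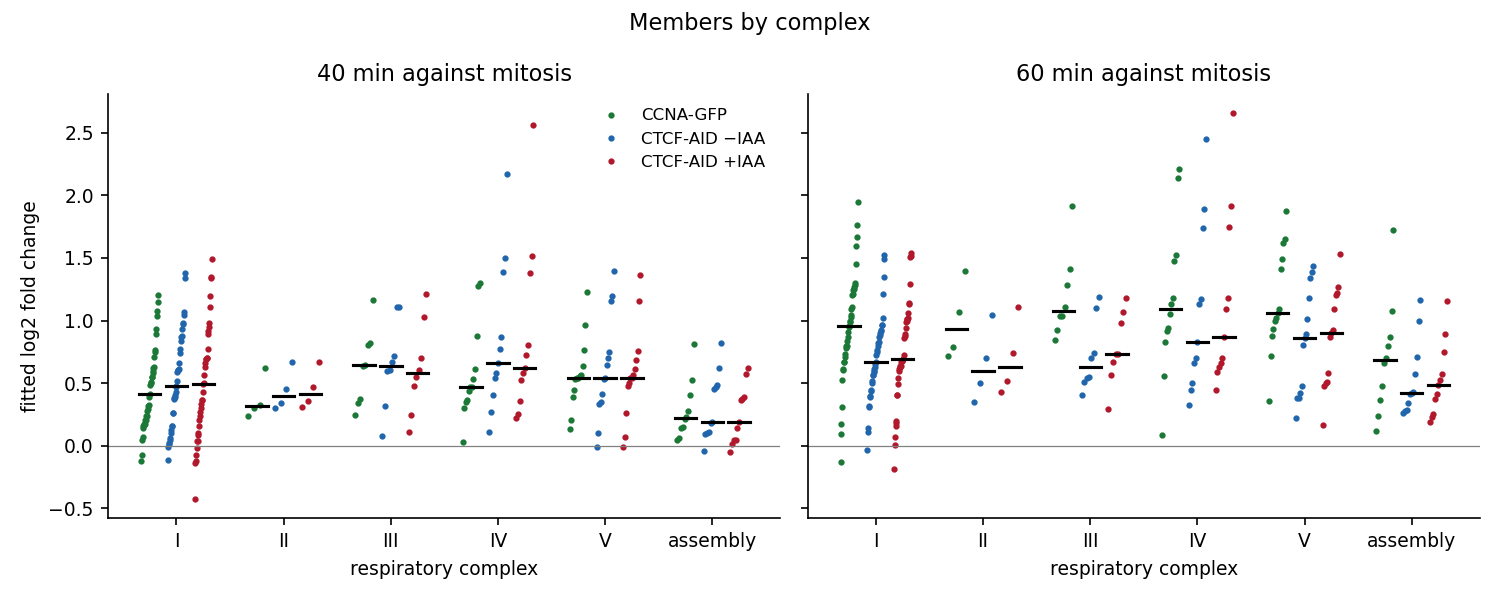
Fitted log2 fold change against mitotic cells (y axis) at 40 min (left) and 60 min (right) for members grouped by complex (x axis), each point 1 gene and each bar the median, coloured by arm. At 60 min the medians in CCNA-GFP lie between 0.93 and 1.09 for complexes I to V and at 0.68 for the assembly factors.

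A list of 10 central subunits, most of which carry redox centres or catalytic sites, rose at 60 min in CCNA-GFP, as did 88.3% of all genes. In complex I, Ndufv1, which binds NADH, had a log2 fold change of 0.91 ± 0.13 and Ndufs1 0.71 ± 0.13 (fit SE, as for all ± beside a fold change). In complex II it was 1.07 ± 0.11 for Sdha, the flavoprotein, and 0.71 ± 0.09 for the iron-sulphur subunit Sdhb. In complex III, Uqcrc1 had 1.41 ± 0.15 and the Rieske iron-sulphur protein Uqcrfs1 1.04 ± 0.12. In complex IV, Cox4i1 had 0.83 ± 0.13 and Cox5a 1.13 ± 0.11, and in ATP synthase the alpha subunit Atp5a1 had 1.87 ± 0.15 and the catalytic beta subunit Atp5b 0.93 ± 0.13. All 10 were higher in both replicate pairs. The share of all genes higher in both pairs is not given, and 96.2% of all genes had a fitted change above 0. With the same total in every library, Atp5b (−0.32), Cox4i1 (−0.42), Ndufs1 (−0.33), Ndufv1 (−0.15) and Sdhb (−0.05) had values below mitosis in CCNA-GFP, whereas Atp5a1 (0.73) and Uqcrc1 (0.37) stayed above it. Sdha was then at 0.17, Uqcrfs1 at 0.15 and Cox5a at 0.075, the latter pair no longer called. In −IAA cells under that scaling the values were −0.062, −0.15 and −0.34, of which the last was called lower.

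Atp5a1 and Atp5b encode the alternating subunits of the same catalytic head, and their courses differed. Atp5a1 had 3.10, 2.39 and 3.74 TPM in the mitotic libraries of CCNA-GFP, 9.20 and 6.55 TPM at 40 min, 15.4 TPM in the 50 min library, 14.7 and 10.9955 TPM at 60 min, and 4.93, 4.19 and 6.54 TPM in asynchronous cells. Atp5b had 8.01, 6.74 and 8.29 TPM in mitosis, 12.0 and 10.1 TPM at 40 min, 15.5 TPM in the 50 min library, 17.1 and 12.8 TPM at 60 min, and 8.30, 7.21 and 10.1 TPM in asynchronous cells. Both genes were thus above every mitotic library by 40 min, and their levels met in the 1 library at 50 min, from a mitotic level that was lower for Atp5a1. In the annotation 59.5% of Atp5b is exon, against 34.3% of Atp5a1, and Atp5b overlaps Snord59a and Mir677 on the same strand. Whether spliced or overlapping RNA adds to the higher mitotic values of Atp5b was not tested.

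The largest changes at 60 min in CCNA-GFP were those of 2 small subunits of complex IV, followed by members of complexes I, III and V. Cox6a1 had a log2 fold change of 2.21 ± 0.15 (limma adjusted p = 1.7e-10), above 99.5% of all genes, and Cox6b2 2.14 ± 0.15 (2.0e-10), above 99.3%. Next came Ndufv3, an accessory subunit of the NADH-oxidising arm of complex I (1.95 ± 0.12), Uqcrh, the hinge protein of complex III (1.91 ± 0.12), and Atp5a1. In −IAA cells at 60 min the 3 largest were Cox6b2 (2.45 ± 0.19), Cox5b (1.89) and Cox6a1 (1.74 ± 0.15), and in +IAA cells the same genes led, with Cox6b2 at 2.66 ± 0.19. Under the same total these 2 genes remained higher than in mitosis: Cox6a1 by 1.19, 0.96 and 0.97 and Cox6b2 by 0.88, 1.58 and 1.80 in CCNA-GFP, −IAA and +IAA. Ndufv3 (1.04, 0.50 and 0.58), Uqcrh (0.90, 0.34 and 0.41) and Cox5b (0.62, 1.18 and 1.22) also lay above mitosis there.

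Cox6b2 encodes a form of subunit VIb known mainly from testis, beside the widely used Cox6b1. It was at 8.22, 5.85 and 6.27 TPM in mitotic CCNA-GFP libraries, 9.43 and 5.08 TPM at 20 min, 22.9 and 13.4 TPM at 40 min, 37.3 and 28.9 TPM at 60 min, 35.2 and 26.9 TPM at 120 min, and 13.2, 12.8 and 14.2 TPM in asynchronous cells. Every library from 40 min on was above every mitotic library, and at 60 min its mean of 33.1 TPM was the highest of all members in that line. The gene spans 1303 bp (chr7:4751792-4753094, minus strand, GRCm38), of which 85.0% is exon in the annotation, so that few of its reads can tell unspliced from spliced RNA. Other members are also mostly exon, among them Atp5g1 (72.0%) and Cox5b (71.1%). Cox6b1 was at 0.836, 0.830 and 1.21 TPM in mitosis and 4.98 and 3.36 TPM at 60 min, a log2 fold change of 1.48 ± 0.12 (0.60 under the same total). In −IAA cells Cox6b2 had 4.74, 3.49 and 2.87 TPM in mitosis, 26.1 and 15.3 TPM at 40 min, 27.8 and 21.7 TPM at 60 min, and 12.7 and 11.3 TPM at 120 min. Asynchronous −IAA cells had 6.02, 5.15 and 4.87 TPM, so that every −IAA library from 40 min on lay above all asynchronous ones. In CCNA-GFP this held from 50 min on, since 1 library at 40 min fell within the asynchronous range.

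The other members known as tissue-restricted forms were low. Cox7a1, the heart and muscle form of subunit VIIa, had a mitotic mean of 0.143 ± 0.0882 TPM (SD, n = 3) and a 60 min mean of 0.704 ± 0.296 TPM (SD, n = 2) in CCNA-GFP, with a log2 fold change of 0.56 ± 0.09 (0.20 under the same total, not called). In −IAA and +IAA cells Cox7a1 was called higher at 60 min, also under the same total. Its asynchronous mean in CCNA-GFP, 0.272 TPM, was below the authors' filter of 0.5 TPM. Cox7a1 was thus listed through its level after release, and its rise is partly set by that filter. Cox7b2, a paralog of Cox7b known from testis, had a mitotic mean of 0.277 ± 0.109 TPM (SD, n = 3) and a 60 min mean of 0.355 ± 0.252 TPM (SD, n = 2) and was not called (0.08 ± 0.08, limma adjusted p = 0.31). Of 8 such forms fixed as a list, these 2 and Cox6b2 were listed in CCNA-GFP.

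The member called at 30 min in CCNA-GFP was Ndufa11, an accessory subunit of the membrane arm of complex I. Its libraries had 2.33, 1.43 and 2.31 TPM in mitosis, 3.703 and 1.61 TPM at 20 min, 4.32 and 4.45 TPM at 30 min, 6.97 and 3.98 TPM at 40 min, 12.1 TPM at 50 min and 9.74 and 7.04 TPM at 60 min. The log2 fold change at 30 min was 0.66 ± 0.14 (limma adjusted p = 0.049), with both 30 min libraries above all mitotic ones. Without replicate 1 or without replicate 3, 0 members were called at 30 min, and without replicate 2 there were 2. Scaled to the same total, the 30 min change was 0.56 and not called (limma adjusted p = 0.073), and that at 60 min 0.71. Asynchronous cells were at 2.38, 1.68 and 3.46 TPM and overlapped with mitosis.

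To see whether the members share sequence before their starts, 8-letter and 7-letter patterns of factors known to act on respiratory genes were searched on both strands in the 250 bases before the RefSeq start. Of the 85 members, 73 had such a window. NRF1 (nuclear respiratory factor 1) was searched as GCGCATGC and found in 9 of the 73 members (12.3%), against 5.67% of listed genes and 2.56% of all genes with a window. The ETS core CCGGAAG, which GABP and other ETS factors bind, was found in 15 members (20.5%), against 16.9% of listed genes and 7.83% of all genes, and the YY1 pattern AAGATGGC in 1 (1.37%, against 2.58% and 1.83%). Members with the NRF1 letters had a median log2 fold change of 1.10 at 60 min in CCNA-GFP and those without 1.00. The 170 bases before the start of Cox6a1 and Ndufa11 are printed 5′ to 3′ in gene orientation with pattern letters in capitals (RefSeq, GRCm38.p6). In CCNA-GFP these were the member with the largest rise at 60 min and the one called first, so they do not stand for all 9 members with the NRF1 letters. The 60 min changes of those 9 ran from 0.36, in Atp5g2, to 2.21, and of members without the letters from −0.13 to 2.14. Cox6b2, Ndufv3, Uqcrh and Atp5a1, the next largest changes, are not among the 9.
Cox6a1, chr5:115348959-115349128, minus strand: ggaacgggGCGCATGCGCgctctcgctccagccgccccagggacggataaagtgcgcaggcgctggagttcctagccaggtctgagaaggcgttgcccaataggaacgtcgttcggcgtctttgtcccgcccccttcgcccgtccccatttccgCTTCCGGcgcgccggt
Ndufa11, chr17:56717592-56717761, plus strand: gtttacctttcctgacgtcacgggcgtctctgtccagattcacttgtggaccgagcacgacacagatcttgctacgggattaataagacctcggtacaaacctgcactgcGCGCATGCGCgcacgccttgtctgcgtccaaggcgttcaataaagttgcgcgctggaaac
The NRF1 letters read on both strands overlap in a single run, 162 to 153 bases before the start of Cox6a1 and 60 to 51 before that of Ndufa11, and Cox6a1 also holds the ETS letters on the opposite strand 16 to 10 bases before its start. A match of letters is a description of the sequence and not evidence of binding.

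A small set of members was not called higher by 60 min. In CCNA-GFP, limma left 5 uncalled at that time, with adjusted p from 0.060 to 0.50, and 4 of them were called higher at 90 min, all but Ndufc2. They were Ndufc2, an accessory subunit of complex I (−0.13 ± 0.08), Cox7b2, Ndufa13 (0.09 ± 0.13), the complex I assembly factor Ndufaf1 (0.12 ± 0.09) and Ndufv2, a core subunit beside Ndufv1 (0.17 ± 0.08). Ndufc2 and Ndufv2 were also not called at 60 min in −IAA or +IAA cells. Ndufs7 completed the set in −IAA cells (0.14), and Atp5g2, Ndufa13, Ndufab1 and Ndufs4 in +IAA cells. With +IAA at 40 min, Ndufa13 (−0.42) and Ndufv2 (−0.14) were called lower than in mitosis, among 3.87% of all genes.

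Ndufc2 had 0.592, 0.498 and 0.984 TPM in mitotic CCNA-GFP libraries, 0.420 and 0.463 TPM at 40 min, 0.457 and 0.424 TPM at 60 min, and 0.841, 0.530 and 1.10 TPM in asynchronous cells. The 40 and 60 min libraries were below every mitotic one. It was the member called least often in that line: at 90 min it was the single member not called (−0.07, limma adjusted p = 0.42). Its locus overlaps Gm16053 on the same strand, so its reads could be shared with that gene. Such an overlap was found for 10 members, among them Ndufa13 (Yjefn3) and Cox4i1 (Gm20388). Scaled to the same total, Ndufc2 was lower than in mitosis at 60 min by −0.63 in CCNA-GFP and −0.45 in −IAA cells, both called. Ndufa13 varied with the replicate number: at 60 min in CCNA-GFP replicate 1 had 1.90 and replicate 2 0.247 TPM, and in mitosis replicates 1, 2 and 3 had 1.32, 0.399 and 1.97 TPM. Its stage means therefore rest on which replicates each stage holds.

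**Figure D3:**
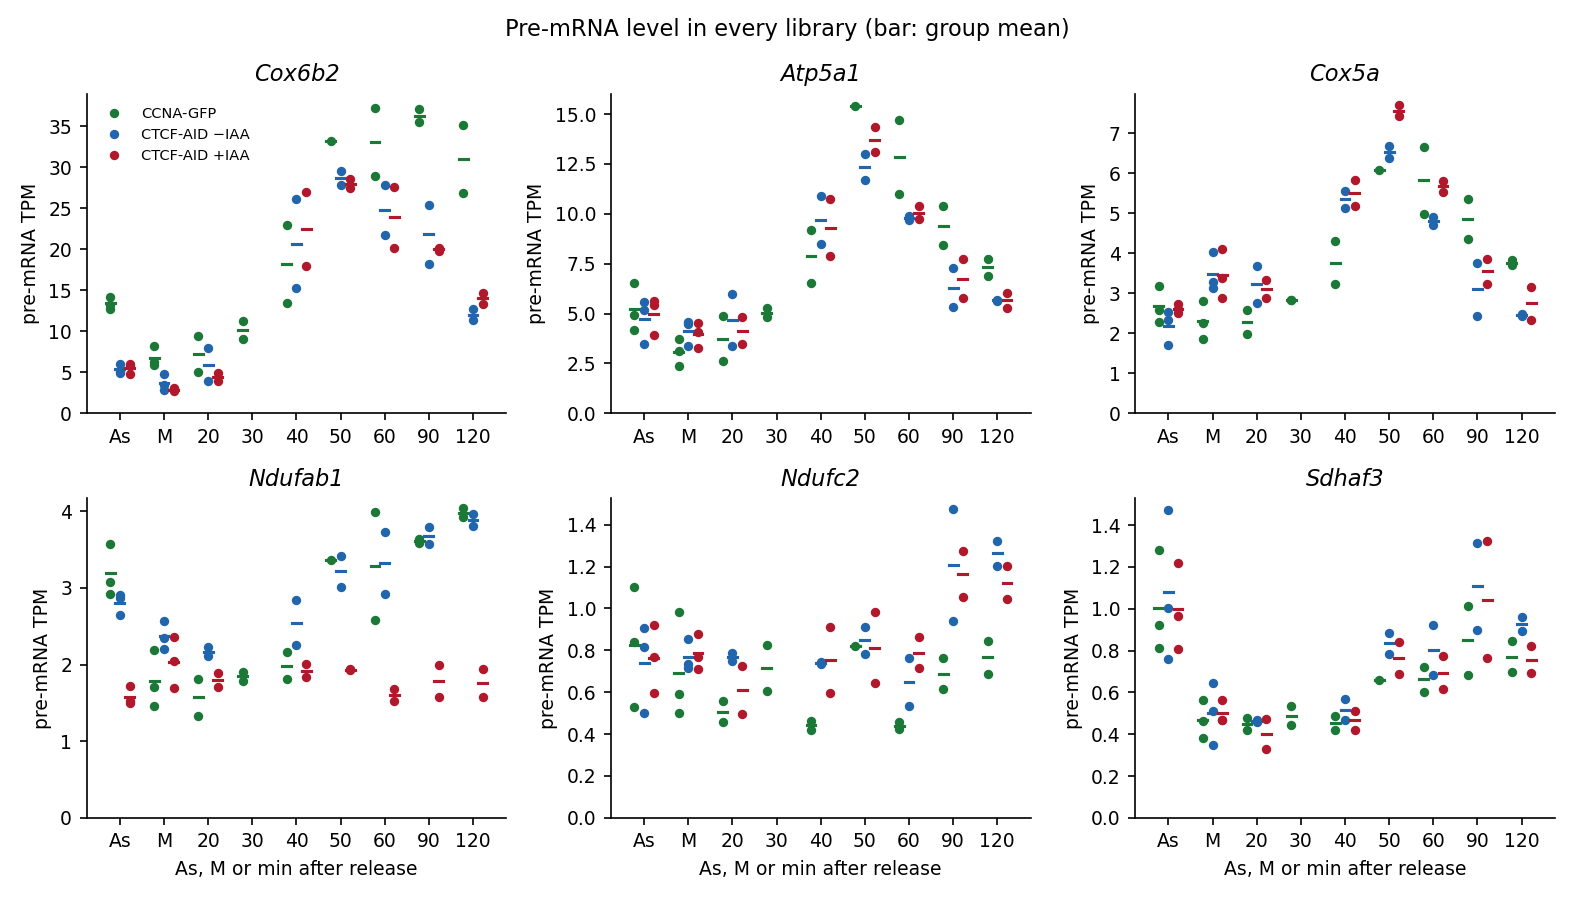
Pre-mRNA level in TPM (y axis) in every library by stage (x axis; As asynchronous, M mitotic, then minutes after release) for Cox6b2, Atp5a1, Cox5a, Ndufab1, Ndufc2 and Sdhaf3; each point is 1 library and each bar a group mean, coloured by arm. Cox6b2 is at 37.3 and 28.9 TPM at 60 min in CCNA-GFP against 5.85 to 8.22 TPM in mitosis, whereas Ndufc2 stays at 0.457 and 0.424 TPM.

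The next comparison asked how the early level relates to that of asynchronous cells. In CCNA-GFP 69 members were lower in asynchronous cells than at 60 min (67.0% of all genes) and 6 were higher (8.6%), with a median log2 difference of −0.66, against −0.47 for all genes. In −IAA cells 73 were lower (75.2%) and 0 higher (7.06%), and in +IAA cells 74 were lower (72.2%) and 1 higher (8.24%), with a median of −0.67 in both. The most negative in CCNA-GFP were Atp5g1, which encodes the c-ring subunit of ATP synthase (−1.62 ± 0.14), Ndufa11 (−1.57 ± 0.14), Cox6a1 (−1.52 ± 0.15), Ndufb6 (−1.48) and Uqcrh (−1.37 ± 0.12). Higher in asynchronous cells were Ndufa13 (0.44 ± 0.13), Cox7b2 (0.26), Ndufv2 (0.24), Ndufc2 (0.23 ± 0.08), Ndufaf1 (0.22 ± 0.09) and Sdhaf3, a complex II assembly factor (0.20). Scaling to the same total gave 34 lower and 19 higher in CCNA-GFP (35.0% and 35.2% of all genes), 35 and 19 in −IAA (37.5% and 32.9%) and 40 and 22 in +IAA cells (36.9% and 33.9%). Division by each library's step, the smallest amount by which its values differ, also lowered the CCNA-GFP count, as given in the last section.

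Between 60 and 120 min the decline was more frequent in CTCF-AID than in CCNA-GFP cells, as it was for all genes; the difference between the lines was not tested. In CCNA-GFP 25 members were lower at 120 than at 60 min (28.5% of all genes) and 4 higher (9.6%). In −IAA cells 57 were lower (53.1%) and 3 higher (7.31%), and in +IAA cells 58 were lower (50.8%) and 4 higher (7.61%). Ndufs4, an accessory subunit close to the iron-sulphur centres of complex I, was higher at 120 than at 60 min in each arm, by 0.75, 0.44 and 0.47 in CCNA-GFP, −IAA and +IAA. Ndufaf1 (0.63, 0.44 and 0.53) and Ndufc2 (0.29, 0.46 and 0.25) were also higher in each. Ndufs4 had 2.63 and 1.63 TPM at 60 min and 4.66 and 3.78 TPM at 120 min in CCNA-GFP, without overlap. Ndufv3 (−0.66 ± 0.12, −0.87 ± 0.12 and −0.92 ± 0.12) and Uqcrh (−0.81, −0.80 and −0.85) were lower in each. All 5 of these genes kept their direction and their call in each arm under the same total. Without replicate 1, 4 members were lower at 120 min in CCNA-GFP, 37 in −IAA and 35 in +IAA, and without the replicate block 6, 27 and 33. Divided by each library's step, 12 were lower in CCNA-GFP, for which no share of all genes is given. These comparisons and the previous ones share the 60 min libraries and are not independent. After scaling to the same total, 16 members were lower and 15 higher in CCNA-GFP (21.7% and 24.4% of all genes), 21 and 15 in −IAA (26.5% and 25.6%), and 19 and 13 in +IAA cells (27.2% and 26.6%).

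The members were also ordered by the stage of their highest mean. In CCNA-GFP 34 members had their highest mean at 50 min (40.5%, against 21.7% of all genes), 10 at 60 min (11.9% against 23.0%), 33 at 90 min (39.3% against 37.1%), 3 at 120 min and 4 in asynchronous cells (4.76% against 10.4%). The 50 min value in this line is a single library of replicate 3, whereas 60 min holds replicates 1 and 2 and 90 min replicates 1 and 3, so raw means of these stages compare different replicates. In the fit with the replicate block, added after the data were seen, 16 members of CCNA-GFP were highest at 50 min (19.0476%, against 9.37% of all genes), 38 at 60 min (45.2% against 43.7%) and 17 at 90 min (20.2% against 18.4%). In −IAA cells 67 members were highest at 50 min (79.8%, against 48.1% of all genes), and in +IAA cells 66 (78.6% against 51.2%). Fitted with the block, 42 were highest at 50 min (50.0%, against 32.0% of all genes) and 28 at 60 min (33.3% against 37.5%) in −IAA cells, and in +IAA cells 44 (52.4% against 37.2%) and 30 (35.7% against 32.2%). By raw means, 44, 70 and 70 of 84 members were highest by 60 min in CCNA-GFP, −IAA and +IAA (45.1%, 68.7% and 68.0% of all genes). The 43 members highest by 60 min in all 3 arms included the complex III subunits Uqcr10, Uqcr11, Uqcrc1, Uqcrc2, Uqcrfs1, Uqcrh and Uqcrq. Highest at 90 min or later, or in asynchronous cells, in all 3 arms were 11 members, of which 8 are subunits of complex I (Ndufa12, Ndufa13, Ndufc2, Ndufs1, Ndufs3, Ndufs4, Ndufv1 and Ndufv2) and 3 are assembly factors (Ndufaf1, Ndufaf5 and Sdhaf3). Complex I holds 37 of all members, and the make-up of these sets was not tested. The share of all genes meeting either condition in all 3 arms is not given. The median gene length of the 11 late members was 22724 bp, against 7119 bp for the 43 early members. Within CCNA-GFP alone the contrast was small, with a median of 8379 bp for the 33 members highest at 90 min and 6994 bp for the 34 highest at 50 min. By fitted values 53 members were highest by 60 min in all 3 arms, including the same 43, with a median length of 7206 bp, and 8 of the 11 later ones remained, with a median of 15551.5 bp.

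The mean of asynchronous cells was first reached at 20 min by 3 members of CCNA-GFP (3.57%, against 3.03% of all genes) and at 30 min by 18 (21.4% against 12.2%). It was first reached at 40 min by 19 (22.6% against 16.9%) and at 50 min by 29 (34.5% against 33.9%). Asynchronous cells stood below mitosis for 3 members in this line (3.57% against 8.35%), for 29 of 84 in −IAA cells (34.5%, against 26.5% of all genes) and for 27 of 84 in +IAA cells (32.1% against 23.7%).

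Asynchronous and mitotic cells were therefore compared in each line. In CCNA-GFP 63 members were higher in asynchronous cells (70.4% of all genes) and 1 was lower (1.97%), with a median of 0.37 against 0.33 for all genes. In −IAA cells 26 were higher (34.3%) and 10 lower (5.25%), with a median of 0.07 against 0.12, and in +IAA cells 33 were higher (40.9%) and 9 lower (5.89%). Lower in each arm was Cox8a, a small subunit of complex IV, by −0.25, −0.65 and −0.69 in CCNA-GFP, −IAA and +IAA. In −IAA cells it had 8.18, 5.49 and 8.08 TPM in mitosis and 4.91, 3.35 and 4.43 TPM in asynchronous cells, without overlap. The others called lower in −IAA cells were Uqcr11 (−0.50), Atp5b (−0.49 ± 0.11), Cox5a (−0.49 ± 0.10), Cox4i1 (−0.46), Atp5f1 (−0.42), Atp5e (−0.41), Uqcr10 (−0.39), Ndufaf5 (−0.18) and Ndufa8 (−0.17). Without replicate 3, 13 members were higher in −IAA, and 20 were higher and 4 lower in +IAA, and leaving out any replicate of CCNA-GFP left 0 lower there. None of those lower in −IAA encodes a subunit of complex II, and 1 (Ndufa8) is a subunit of complex I. With the same total, 24 members were higher and 17 lower in CCNA-GFP (24.8% and 20.3% of all genes), 19 and 26 in −IAA (27.2% and 21.4%), and 20 and 26 in +IAA cells (29.8% and 22.4%). Divided by each library's step, 51 were higher and 4 lower in −IAA (66.0% and 1.51% of all genes), and 51 and 3 in +IAA (67.1% and 2.19%). Without the replicate block 39 were higher in CCNA-GFP, 11 in −IAA and 15 in +IAA.

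The change at 40 min was smaller in long than in short members. The members are short, with a median of 7800 bp against 22562 bp over all listed genes, from 1205 bp for Atp5k, a small subunit of ATP synthase, to 155909 bp for the assembly factor Ndufaf2. The 83 members listed for both lines were split by length, which leaves out Cox7b2 and Ndufaf7. At 40 min in CCNA-GFP the 27 shortest (up to 5423 bp) had a median log2 fold change of 0.58 with 26 called higher (76.5% of genes of that length range). The 29 of middle length (to 10809 bp) had 0.54 with 22 higher (73.8%), and the 27 longest of the 83 had 0.25 with 13 higher (42.4%), where 49.3% of all genes were called. All listed genes of the same length ranges had medians of 0.54, 0.45 and 0.22. In −IAA cells the members' medians were 0.62, 0.54 and 0.26, against 0.77, 0.59 and 0.27 for all genes of those lengths, and in +IAA cells 0.61, 0.56 and 0.19 against 0.77, 0.59 and 0.22. The members' median thus stood slightly above that of genes of like length in CCNA-GFP and below it in each of the 3 length classes in both arms of CTCF-AID cells. Across genes within a line, the Spearman correlation of length with the change at 40 min was −0.55 over 84 members and −0.54 over 9900 genes in CCNA-GFP, −0.55 and −0.59 in −IAA, and −0.53 and −0.63 in +IAA cells. Genes are not independent replicates, and they share the libraries.

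**Figure D4:**
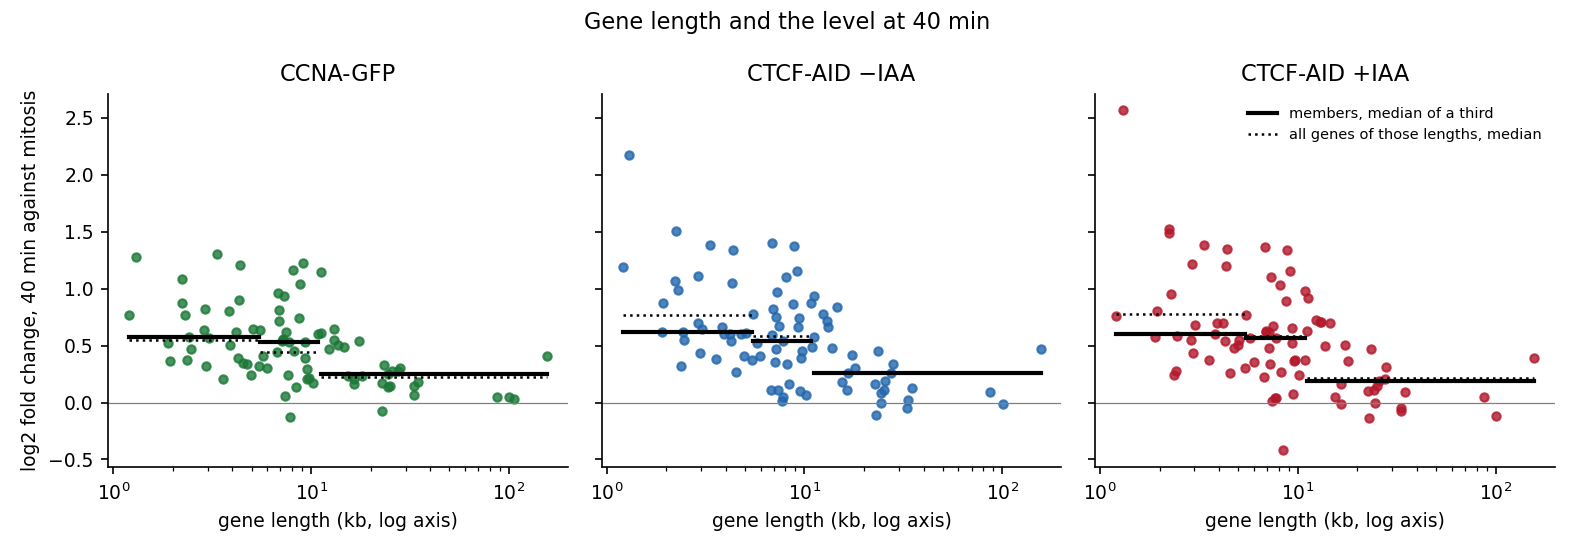
Fitted log2 fold change at 40 min against mitosis (y axis) by gene length in kb (x axis, log scale) for each member in the 3 arms. Solid bars are the medians of the shortest, middle and longest members (0.58, 0.54 and 0.25 in CCNA-GFP) and dotted bars those of all listed genes of these lengths (0.54, 0.45 and 0.22).

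Other genes of the pathway were taken from lists outside the naming rule, and their counts at 60 min are read against the 88.3% of all genes higher in CCNA-GFP, 84.8% in −IAA and 82.2% in +IAA. Both electron carriers of the chain outside the rule rose at 60 min in each arm: in CCNA-GFP by 1.12 ± 0.19 for Cyc1, the cytochrome subunit of complex III, and by 1.67 ± 0.13 for Cycs, cytochrome c. Of 38 further assembly factors 33 were listed in CCNA-GFP, and 31 were higher at 60 min and 0 lower (median 0.89). In CTCF-AID 28 of 32 were higher in each arm and 0 lower, so that their share was near that of all genes. Not called in CCNA-GFP were Cox16 (−0.21 ± 0.10) and Atpaf1 (0.00 ± 0.10). Of 12 nuclear regulators of mitochondrial biogenesis 11 were listed, and 11 were higher at 60 min in CCNA-GFP, 10 in −IAA and 9 in +IAA cells. Among them were Gabpa (1.65 ± 0.13), which encodes the DNA-binding subunit of GABP, Tfam (1.56 ± 0.13), the factor that packages and transcribes mitochondrial DNA, Esrra (0.82 ± 0.12) and Nrf1 (0.51 ± 0.14), all in CCNA-GFP. Under the same total 13 of the assembly factors were higher and 8 lower in CCNA-GFP, 19 and 7 in −IAA and 17 and 7 in +IAA, and 5 regulators were higher and 3 lower in each arm. In CCNA-GFP Cycs (0.84), Gabpa (0.57) and Tfam (0.53) were then still called higher, Cyc1 (0.07) and Esrra (−0.04) were not called, and Nrf1 (−0.53), Cox16 (−0.39) and Atpaf1 (−0.85) were called lower than in mitosis. With IAA these lists had 0 genes called at any stage, against at most 0.694% of all genes lower and 0.313% higher at a stage.

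The CTCF-AID arms address whether these genes change when CTCF is degraded; Ctcf pre-mRNA is no check of that protein. For every stage, +IAA libraries were set against −IAA libraries with limma on all 36 libraries without a block, calling an adjusted p under 0.1 with an absolute log2 difference above 0.2. Nearly all members were at similar levels in both arms: at 50 min they summed to 456 ± 20.1 TPM without and 465 ± 18.6 TPM with IAA (SD, n = 2 each), and the median log2 difference over the members lay between −0.08 at 20 min and 0.04 at 50 min. Of the 84 members, 74 had their highest mean at the same stage with and without IAA (88.1%), as did 81.4% of all genes. Lower with IAA were 1 member in asynchronous cells (0.694% of all genes), 1 at 50 min (0.195%) and 1 at 60 min (0.166%), then 2 at 90 min (0.557%) and 1 at 120 min (0.459%). At the mitotic stage, 20 and 40 min 0 members and 0.0% of genes were called lower with limma (unadjusted p under 0.05: 1, 1 and 3 members, 23, 31 and 85 of all genes). Called higher with IAA were 0 members at any stage, against 0.0% to 0.313% of all genes at a stage. Whether the difference over 20 to 60 min departed from that in asynchronous cells was tested as an interaction, which called 0 members and 2 of all genes (unadjusted, 0 members and 117 genes). Time in IAA grew with time after release, and asynchronous cells had 4 h of it. Stage and time in IAA therefore cannot be told apart. No cells without the degron were given IAA.

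The member called at each of these stages was Ndufab1, the mitochondrial acyl carrier protein, which is both a subunit of complex I and a carrier in fatty acid and lipoic acid synthesis (chr7:122085403-122101886, minus strand, GRCm38). In asynchronous cells it had 2.86, 2.65 and 2.91 TPM without IAA and 1.495, 1.52 and 1.71 TPM with IAA. At 60 min it had 3.73 and 2.92 TPM without and 1.52 and 1.67 TPM with IAA, and at 120 min 3.81 and 3.97 TPM against 1.58 and 1.94 TPM. The arms did not overlap at these stages, nor at any other time after release. Having every +IAA library lower was rare among all genes in asynchronous cells (2.05%). It was more common after release, where the share ranged between 5.79% (90 min) and 14.5% (40 min). With 2 libraries per arm there, a lack of overlap says little by itself. In mitosis the arms of Ndufab1 overlapped, with 2.197, 2.34 and 2.56 TPM without and 2.04, 1.69 and 2.36 TPM with IAA.

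The log2 difference of Ndufab1 was −0.56 ± 0.10 in asynchronous cells (limma adjusted p = 0.0013), −0.52 ± 0.12 at 50 min (0.065) and −0.73 ± 0.12 at 60 min (0.0028). The 90 min difference was −0.75 ± 0.12 (limma adjusted p = 0.00078) and that of 120 min −0.83 ± 0.12 (0.00028). The difference was −0.16 in mitosis, −0.18 at 20 min and −0.28 at 40 min, none of them called. In all 18 same-numbered pairs over the stages, 4 members were lower with IAA: Atp5g2, Ndufab1, Ndufaf4 and Uqcrc1 (0.938% of all genes). Against mitosis, Ndufab1 was at −0.18 ± 0.09 at 60 min in +IAA (limma adjusted p = 0.053) and at 0.39 ± 0.09 in −IAA cells (0.00022), and with the same total at −0.83 and −0.33. With the same total in every library the difference between the arms at 60 min was −0.65 and still called. Without replicate 1, which leaves 1 library per arm at each time after release, so that a lone library is assumed to vary like the other groups, 0 members were called at any stage. The difference of Ndufab1 was then −0.53 in asynchronous cells, −0.55 at 60 min and −0.76 at 120 min. At 60 min the call was also lost without replicate 2, and at 50 min whichever replicate was left out.

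Ndufb7, an accessory subunit of complex I on the side of the intermembrane space, was called at 90 min. It had 2.63 and 3.69 TPM there without and 1.08 and 1.09 TPM with IAA (−0.98 ± 0.24, limma adjusted p = 0.070, and 0.013 with the replicate block). Ndufb7 had the larger adjusted p of the members called at 90 min. Fewer members were called there after division by each library's step, with a pseudocount of 0.1 or without replicate 2. In asynchronous cells it had 0.465, 1.63 and 1.89 TPM without and 0.453, 0.366 and 0.332 TPM with IAA, a difference of −0.69 ± 0.20 that was called only with the block (adjusted p = 0.038, against 0.17). Its first −IAA library lay near the +IAA ones and the other two above them. Of its length 91.2% is exon, so that few reads can tell its unspliced from its spliced RNA.

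Ndufaf4, an assembly factor of complex I, was below in all 18 pairs without a call at any single stage: it had 2.72 and 3.21 TPM without and 1.73 and 1.69 TPM with IAA at 90 min (−0.55 ± 0.14, limma adjusted p = 0.12). With the replicate block, 4 members were lower with IAA in asynchronous cells (1.53% of all genes) and 2 at 50 min (0.752%). Later, 1 was lower at 60 min (0.83% of all genes), 3 after 90 min (1.26%) and 2 in the 120 min libraries (1.03%). Ndufaf4 was then called in asynchronous cells (limma adjusted p = 0.019), at 50 min (0.047), 90 min (0.0062) and 120 min (0.0085), and Atp5g2, another gene of the c-ring subunit, was called in asynchronous cells (−0.31, adjusted p = 0.018). In a single contrast of the mean difference over 20 to 60 min, added after the data were seen, 3 members were lower (0.781% of all genes): Ndufab1 (−0.43 ± 0.06), Ndufaf4 (−0.39 ± 0.07, limma adjusted p = 0.0036) and Atp5k (−0.44 ± 0.12, 0.096). Atp5k had 4.67 and 1.69 TPM at 40 min without and 1.40 and 1.44 TPM with IAA, so that the −IAA libraries were far apart and 1 of them was close to the +IAA ones. Atp5k was below in 17 of 18 pairs, and Uqcrc1 was below in all 18 by a smaller mean difference over 20 to 60 min (−0.17 ± 0.10), which was not called.

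**Figure D5:**
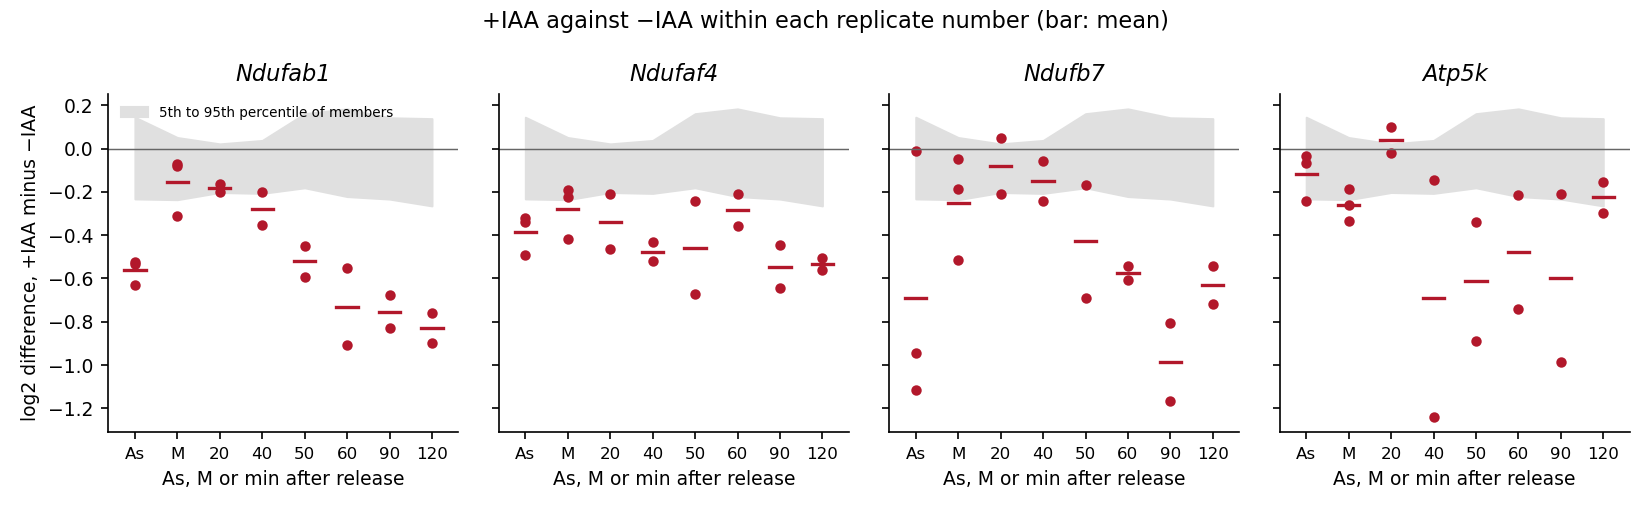
Log2 difference of TPM + 1 between +IAA and −IAA libraries of the same replicate number (y axis) by stage (x axis; As asynchronous, M mitotic, then minutes after release) for Ndufab1, Ndufaf4, Ndufb7 and Atp5k; points are pairs, bars their means and the grey band the 5th to 95th percentile of the members. Ndufab1 goes from −0.16 in mitosis to −0.83 at 120 min, while the time in IAA also grew.

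The bases before the starts of 6 members named in the comparison of the arms are shown since the arms differ in CTCF, a factor that binds DNA. Of these, 5 were called lower with IAA in at least 1 of the fits above, Atp5g2 only with the block, and Uqcrc1 was called in none. The core pattern CCNNNAGNNGGC of the CTCF motif was added to the search after the data were seen and looked for on both strands in the 250 bases before the start. It was found in 11 of 73 members (15.1%), in 12.9% of listed genes and in 8.24% of all genes with a window. Of the 6 genes shown, Ndufaf4 and the uncalled Uqcrc1 hold an exact match and the others do not. Near matches were not searched for, and the runs of Atp5k and Ndufb7 hold letters close to this pattern. The lack of an exact match therefore does not show that a CTCF site is missing. Each run has 170 bases, 5′ to 3′ in gene orientation up to the RefSeq start (GRCm38.p6), with CTCF core, NRF1 and ETS letters in capitals.
Ndufab1, chr7:122101849-122102018, minus strand: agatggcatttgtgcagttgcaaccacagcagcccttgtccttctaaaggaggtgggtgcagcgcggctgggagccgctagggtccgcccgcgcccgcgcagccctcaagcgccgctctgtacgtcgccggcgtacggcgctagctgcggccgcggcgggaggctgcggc
Ndufaf4, chr4:24897913-24898082, plus strand: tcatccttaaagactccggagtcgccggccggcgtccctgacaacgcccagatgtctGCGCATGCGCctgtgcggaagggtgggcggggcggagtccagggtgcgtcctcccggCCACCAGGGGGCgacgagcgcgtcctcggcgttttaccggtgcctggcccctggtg
Ndufb7, chr8:83566588-83566757, plus strand: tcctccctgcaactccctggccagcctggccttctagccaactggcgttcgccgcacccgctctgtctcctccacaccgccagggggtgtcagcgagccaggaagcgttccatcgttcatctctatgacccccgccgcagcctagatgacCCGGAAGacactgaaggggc
Atp5k, chr5:108434400-108434569, minus strand: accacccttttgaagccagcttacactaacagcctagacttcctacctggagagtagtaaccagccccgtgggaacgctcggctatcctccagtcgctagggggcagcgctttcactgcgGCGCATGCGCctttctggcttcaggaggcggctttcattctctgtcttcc
Atp5g2, chr15:102671048-102671217, minus strand: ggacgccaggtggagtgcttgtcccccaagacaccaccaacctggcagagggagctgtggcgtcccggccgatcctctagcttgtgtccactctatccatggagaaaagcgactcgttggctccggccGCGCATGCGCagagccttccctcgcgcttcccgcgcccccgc
Uqcrc1, chr9:108936478-108936647, plus strand: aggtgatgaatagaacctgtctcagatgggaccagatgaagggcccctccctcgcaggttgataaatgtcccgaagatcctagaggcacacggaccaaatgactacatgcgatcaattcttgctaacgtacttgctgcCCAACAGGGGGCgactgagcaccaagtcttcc
The CTCF core letters lie 56 to 45 bases before the start of Ndufaf4 and 32 to 21 before that of Uqcrc1. NRF1 letters lie 113 to 104 bases before the start of Ndufaf4, 50 to 41 before that of Atp5k and 42 to 33 before that of Atp5g2, and ETS letters 20 to 14 before that of Ndufb7. No pattern was found in the run of Ndufab1, the member with the most calls, which says only that these letters are not in this window. No binding data were used here.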

How the data were processed

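The authors aligned ribo-depleted, stranded, paired-end reads to mm10 with STAR, quantified them with RSEM on Gencode with an added pre-mRNA isoform per gene, and deposited the TPM of that isoform for genes above 0.5 TPM on average in asynchronous cells or in at least 2 samples after release. Values of each library are whole multiples (within 0.02 of a step) of 0.01 TPM times a factor of 2.17–3.81 in CCNA-GFP and 1.84–2.80 in CTCF-AID, which the study's text does not name. Read counts were not used here, so the depth is unknown and no count model was fitted. No value column was left unused.

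Samples were grouped by their labels. The headers of the asynchronous CTCF-AID libraries are garbled and were matched to their titles by the letters that remain. Tests used limma 3.58.1 (R 4.3.3; lmFit, eBayes with trend, two-sided) on log2(TPM + 1) over all libraries and genes of a table, with Benjamini-Hochberg adjustment; summaries and figures used matplotlib 3.10.9, scipy 1.17.1, pandas 2.3.3 and numpy 2.4.6 in Python 3.11.15. Equal replicate numbers pair the libraries: how far they lay from their group's mean correlated at over 0.1 for each of 20 CCNA-GFP group pairs (r 0.203–0.802) and 88 CTCF-AID ones (0.218–0.810). The study calls its replicates independent, and p-values measure the spread between these libraries. Replicates had Spearman's rho of 0.918–0.984 and no library was a copy. The fits were tested on simulated data.

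The members, lists and tests were chosen with earlier results of these data known. Named are 10 core subunits (1 more is not reported here), the 5 largest and 5 smallest changes at 60 min in CCNA-GFP, members called at 30 min or with IAA, the 3 largest mean IAA differences, members highest in asynchronous or mitotic cells, tissue-restricted forms and members listed in 1 table. Other names were chosen after their values were seen. Gene positions and lengths are from Gencode vM21 (GRCm38), which matched all 85 members, and sequences before starts are from RefSeq (GRCm38.p6), which matched 73. Alternatives were another scaling (same total, or division by the step), a pseudocount of 0.1, a filter at a mean of 1 TPM, no trend, the block added or removed, and each replicate left out.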

Additional observations from a re-analysis of the deposited data

Results flagged for a closer look

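For 11 of 83 members listed in both lines (13.3%), asynchronous cells were above mitosis in each CCNA-GFP replicate and below it in each −IAA replicate of CTCF-AID. The same held for 688 of 9574 genes (7.19%). The difference was not tested, since the lines came in separate tables of unknown relative scale, and its cause was not tested. It also depended on the scaling: of the 11, all 11 had fitted changes above 0 in CCNA-GFP and below 0 in −IAA as deposited, but 3 did so with the same total, where 3 were above mitosis in CCNA-GFP, and 3 when divided by each library's step, where 3 were below it in −IAA. As the CCNA-GFP minus the −IAA log2 change from mitotic to asynchronous cells, it was 0.65 for Cox5a, 0.61 for Cox7b and 0.62 for Atp5b, the catalytic subunit of ATP synthase. It was 0.59 for Uqcrq and 0.44 for Uqcrfs1 of complex III, 0.55 for Atp5c1 and 0.35 for Atp5l of complex V, and 0.53 for Ndufa4. It was 0.30 for Ndufs5, 0.28 for Ndufb9 and 0.34 for the assembly factor Ndufaf5. Of these, Atp5b (−0.49), Cox5a (−0.49) and Ndufaf5 (−0.18) were called lower in asynchronous −IAA cells, and the −IAA means of Cox7b (−0.02) and Ndufs5 (−0.01) were close to 0.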

How the results depend on the processing

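With the same total in every library, the members higher than in mitosis at 40 min numbered 31 in CCNA-GFP, 34 in −IAA and 37 in +IAA cells, at 60 min 35, 28 and 34, and in asynchronous cells 24 in CCNA-GFP and 20 in +IAA. Those lower in asynchronous cells than at 60 min numbered 34, 35 and 40, and those lower at 120 than at 60 min 16, 21 and 19. The members' median at 60 min was then 0.13, 0.0077 and 0.040, and with IAA 3 members were lower in asynchronous cells and 2 at 120 min. Of the members named by rule, the following changed sign to below mitosis at 60 min under this scaling. Not all of them were called lower, and other members were called lower too. In CCNA-GFP they were Atp5b (−0.32), Cox4i1 (−0.42), Cox7b2 (−0.26), Ndufa13 (−0.60), Ndufab1 (−0.30), Ndufaf1 (−0.49), Ndufs1 (−0.33), Ndufv1 (−0.15), Ndufv2 (−0.47), Sdhaf3 (−0.27) and Sdhb (−0.049). In −IAA cells they were Atp5b (−0.53), Cox4i1 (−0.26), Cox5a (−0.34), Ndufab1 (−0.33), Ndufaf1 (−0.19), Ndufs1 (−0.32), Ndufv2 (−0.57), Sdha (−0.062), Sdhaf3 (−0.046), Sdhb (−0.22) and Uqcrfs1 (−0.15). In +IAA cells they were Atp5b (−0.42), Cox4i1 (−0.34), Cox5a (−0.14), Ndufaf1 (−0.27), Ndufc2 (−0.38), Ndufs1 (−0.35), Ndufv2 (−0.67), Sdha (−0.023), Sdhaf3 (−0.13) and Sdhb (−0.13).

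Divided by each library's step, 51 members were higher in asynchronous than in mitotic cells in −IAA and 51 in +IAA, 42 were lower in asynchronous cells than at 60 min and 12 at 120 than at 60 min in CCNA-GFP, and with IAA 2 were lower in asynchronous cells, 0 at 50 min and 1 at 90 min. With a pseudocount of 0.1 the medians at 60 min were 1.47, 0.95 and 1.01, and 0 members were lower with IAA at 50 min and 1 at 90 min. Without the replicate block, members higher in asynchronous than in mitotic cells numbered 39, 11 and 15, those higher at 40 min in CCNA-GFP 28, and those lower at 120 than at 60 min 6, 27 and 33, with medians at 60 min of 0.59 in −IAA and 0.65 in +IAA. With the replicate block, members lower with IAA numbered 4 in asynchronous cells (1.53% of all genes), 2 at both 50 and 120 min (0.752% and 1.03%) and 3 at 90 min (1.26%), and it left the counts in mitosis and at 20, 40 and 60 min at their values. Fitted values with the block, added after the data were seen, put 54, 72 and 75 members at their highest by 60 min, against 44, 70 and 70 by raw means. The cause of these shifts was not tested.

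Leaving out each replicate in turn gave, in CCNA-GFP, −IAA and +IAA, medians at 60 min of 0.86–1.08, 0.64–0.70 and 0.67–0.77. Members higher at 40 min then numbered 36–55, 59–63 and 56–60, at 60 min 76–80, 77–79 and 75–76, and in asynchronous against mitotic cells 46–59, 13–24 and 20–30. Members lower in asynchronous cells than at 60 min numbered 51–69, 68–71 and 72 each time, those lower at 120 than at 60 min 4–29, 37–55 and 35–57, and those highest by 60 min 36–62, 61–73 and 68–75. With IAA 0–1 members were lower in asynchronous cells, at 60, 90 and 120 min, and 0 at 50 min. The shares of all genes in these refits are not given, so the ranges are not results about the members. Unknown depth limits all values near 0.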
